A study of Mus musculus with 8 samples.

Results

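The cadherins and protocadherins of primary lung fibroblasts (pFBs) were taken from a deposited gene count table by symbol, namely every Cdh gene with a number, every non-clustered Pcdh gene with a number and every gene of the Pcdha, Pcdhb and Pcdhg clusters. The rule found 93 entries with 92 different symbols (Pcdha11 stands on 2 entries) among 54532 entries in all. They were 23 cadherins, 12 non-clustered protocadherins and 58 clustered protocadherins. The libraries were bulk RNA-seq of pFBs of female mice on a C57/black background, 4 of wild type (WT) mice and 4 of homozygous (HOMO) transgenic mice, with no treatment in either group. HOMO mice expressed human IGFBP5 (hIGFBP5) throughout the body from an Ef1a1 promoter after a CRISPR/Cas9 knock-in, so the transgene was not limited to fibroblasts. The mice's age was not given in the sources used here. The comparison asked how the transcriptome of fibroblasts from HOMO mice differed from that of WT mice.

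Cadherins are calcium-dependent adhesion molecules of the cell surface that bind like molecules on the neighbouring cell. The tails of classical cadherins hold beta-catenin, p120 catenin and, through beta-catenin, alpha-catenin and actin. Epithelia are known for E-cadherin (Cdh1), and fibroblasts and other mesenchymal cells for N-cadherin (Cdh2) and cadherin 11 (Cdh11). Clustered protocadherins are known mostly from neurons, where each cell uses a few variable exons, each with a promoter of its own, and where CTCF and cohesin take part in that choice. Variable exons of the alpha and gamma clusters are spliced to constant exons, whereas each beta gene is a single coding exon.

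Libraries held 17236521 to 31987790 counts, so that 3 counts, taken as the floor of counting, equalled a level of 0.0908 to 0.172 CPM. CPM, the unit of all levels here, is a gene's count over its library's total after TMM scaling, set to the same total in each library. Adjusted p-values are from edgeR's quasi-likelihood test with Benjamini-Hochberg adjustment over 14150 genes, unless another tool is named. A gene was called, that is, counted as risen or fallen, where its adjusted p was under 0.05 and its log2 fold change past 0.6 in size. In 3 pairs the libraries stood much closer than in the rest. The biological coefficient of variation was 7.61% between WT1 and WT2, 4.71% between HOMO1 and HOMO2 and 5.62% between HOMO3 and HOMO4, against 29.9 to 55.9% in the other 9 pairs within a genotype. These pairs still differed beyond sampling noise and were kept as separate libraries, but nothing in the labels says that they came from different animals or cultures, and p-values measure the spread between these libraries only. A fit that leaves out a library of a close pair keeps its partner, so it cannot show dependence on that pair. In bulk RNA, a lower share of cells of a type and less RNA per cell cannot be told apart. Fibroblast markers (10 of 10 tested) summed to 12938 to 16625 CPM in WT and 14002 to 24382 CPM in HOMO, and skeletal muscle markers to at most 0.459 CPM.

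Of the 93 entries, 87 had a count in some library, 19 had at most 3 counts in each library and 51 passed the filter on low counts. Among the 51 tested, 7 rose and 7 fell in HOMO pFBs compared with WT pFBs. That was 27.5% of the tested members, against a background of 12.1% of all tested genes called (5.94% up and 6.18% down). WT and HOMO libraries did not overlap for 19 of the 51, against 27.3% of all tested genes. The median log2 fold change of the tested members was -0.18, against -0.04 over all tested genes. Cdh1 passed the filter through the HOMO libraries alone and Pcdhgb5 through the WT libraries alone. DESeq2 called 21 members, the same 14 and 7 more (16.5% of all genes in that tool). With each close pair of libraries summed, which leaves 3 WT and 2 HOMO units, edgeR called 0 of 59 members and 0% of all genes, with 16 members at an unadjusted p under 0.05 (12.8% of all genes), and DESeq2 called 10 members and 4.69% of all genes. The 14 called members kept their direction in both of these fits.

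By class the calls were few in number. Of 8 tested cadherins 2 rose and 0 fell, of 7 non-clustered protocadherins 0 rose and 1 fell, of 17 beta genes 3 rose and 0 fell, of 16 gamma A and gamma B genes 1 rose and 6 fell, and of 3 gamma C genes 1 rose. None of the 14 alpha genes was tested. The share called was 25% of tested cadherins, 14.3% of non-clustered protocadherins and 17.6% of beta genes. It was 33.3% of gamma A, 57.1% of gamma B and 33.3% of gamma C genes. Of all tested genes 12.1% were called (5.94% up and 6.18% down). No test was made of the difference between classes.

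**Figure D1:**
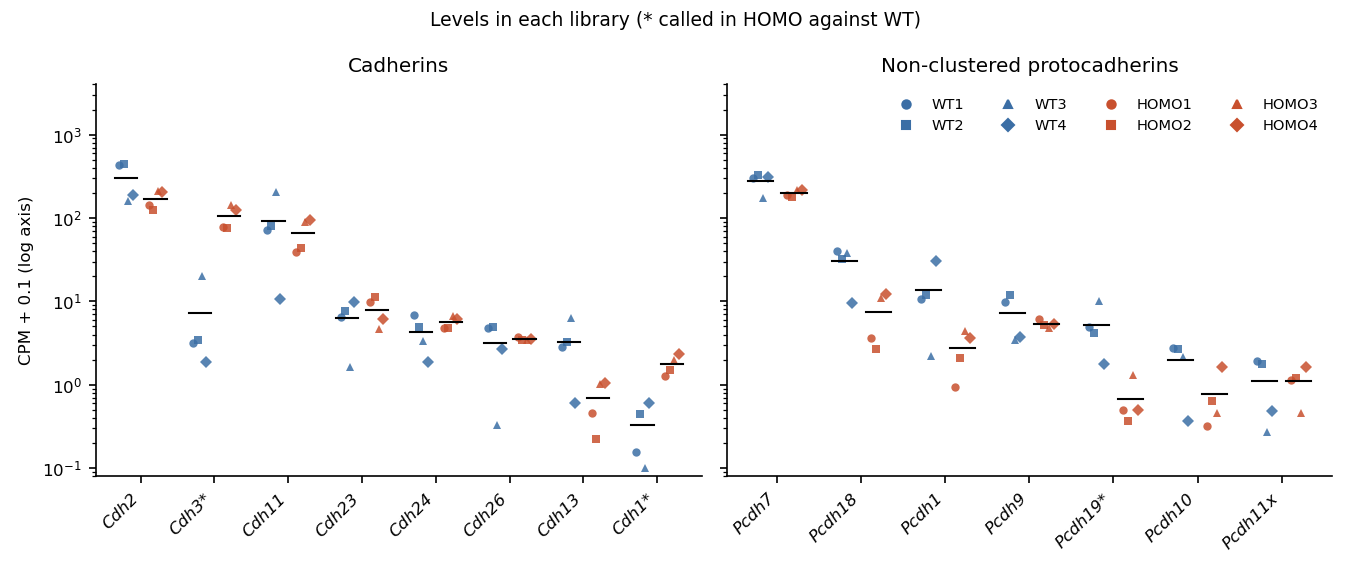
Levels of the 8 tested cadherins and 7 tested non-clustered protocadherins in each library (points, CPM + 0.1 on a log axis, blue WT and orange HOMO, black lines group means, asterisks called genes). Cdh3 and Cdh1 sit higher in each HOMO library than in each WT library and Pcdh19 lower, whereas Cdh2, Cdh11 and Pcdh7 overlap between genotypes.

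Among classical type I cadherins the largest difference was that of Cdh3, P-cadherin, known from placenta and from basal cells of epithelia. Cdh3 (chr8:106510891-106557297, GRCm38) was at 3.09, 3.30, 20.3 and 1.78 CPM in WT1 to WT4 and 77.7, 75.4, 143 and 126 CPM in HOMO1 to HOMO4. The lowest HOMO library stood above the highest WT library, WT3, which itself was far above the other WT libraries. Cdh3 rose from a mean of 7.11 ± 8.79 CPM in WT to 106 ± 34.2 CPM in HOMO (log2 fold change 3.90 ± 0.78 (SE), adjusted p = 0.0167, SD, n = 4 each). It was called in each of the 8 fits that leave out one library, and without WT3 its log2 fold change was 5.28. Per kilobase of exon its level went from 1.62 CPM in WT to 24.1 CPM in HOMO, beside 21.1 CPM for Cdh2 and 18.8 CPM for Pcdh7 in HOMO on the same scale. In each HOMO library Cdh3 supplied 27.8 to 31.0% of all cadherin counts, second to Cdh2.

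Cdh1, E-cadherin, lies next to Cdh3 at chr8:106603351-106670246 and had few reads, with counts of 1, 8, 0 and 13 in WT1 to WT4 and of 26, 47, 37 and 44 in HOMO1 to HOMO4. All HOMO libraries were above all WT libraries, but the highest mean was only 1.67 CPM. Cdh1 rose (log2 fold change 2.77 ± 0.76 (SE), adjusted p = 0.0462), and this call was lost without WT1, WT2, HOMO1, HOMO2, HOMO3 and HOMO4 (adjusted p 0.0769 to 0.112) and with no filter on low counts. Without WT4 its log2 fold change was 3.48. Epithelial markers were scarce and unequal between libraries, with a sum of 0.563, 0.686, 6.03 and 0.426 CPM in WT1 to WT4 and 2.94, 8.32, 14.5 and 10.9 CPM in HOMO1 to HOMO4. Only 1 of the 12 was tested and 0 were called. That marker, Krt18, had counts of 4, 12, 81 and 6 in WT1 to WT4 and of 59, 93, 29 and 37 in HOMO1 to HOMO4. The log2 fold change of Krt18 was 0.66 (adjusted p = 0.655). Epcam, a defining marker of epithelia, had counts of 0, 0, 0 and 1 in WT1 to WT4 and of 0, 1, 0 and 45 in HOMO1 to HOMO4. Sftpc and Scgb1a1, markers of alveolar type II and club cells, had 48 and 110 counts in HOMO2, 99 and 130 counts in HOMO3, and at most 3 counts elsewhere. The part of these transcripts in the counts of Cdh1 and Cdh3 was not tested. Of the 8 mesothelial markers only Wt1, a transcription factor, was called, at 3.26 ± 3.64 CPM in WT and 33.3 ± 6.50 CPM in HOMO, and their sum was 57.2, 52.7, 183 and 119 CPM in WT1 to WT4 and 141, 140.2, 94.02 and 101 CPM in HOMO1 to HOMO4, which overlapped between genotypes.

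Both neighbours upstream of Cdh3 among tested genes, Zfp90 and Smpd3, had positive log2 fold changes of 0.96 and 1.75 with no overlap between genotypes, yet neither was called (adjusted p = 0.0575 and 0.0937). The pseudogene Gm10073, between Cdh3 and Cdh1, was at 0.45 (adjusted p = 0.429). Other tested genes of chromosome 8 had a median log2 fold change of 0.37, and relative to that median Cdh3 was at 3.53 and Cdh1 at 2.39.

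N-cadherin, Cdh2, was the most abundant cadherin by the mean of WT pFBs and in WT1, WT2 and WT4, whereas in WT3 it was second to Cdh11. It was at 428, 444, 162 and 191 CPM in WT1 to WT4 and 143, 124, 210.1 and 204 CPM in HOMO1 to HOMO4. WT1 and WT2 were higher than all other libraries, but WT3 and WT4 lay within the HOMO range, so the genotypes overlapped. The mean was 306 ± 150.3 CPM in WT and 170.3 ± 43.3 CPM in HOMO and the difference was not called (log2 fold change -0.85 ± 0.36 (SE), adjusted p = 0.148). Limma-voom, which called 25.3% of all genes, called Cdh2 (log2 fold change -1.26, adjusted p = 0.000481). Cdh2 made up 81.6, 81.1 and 87.3% of cadherin counts in WT1, WT2 and WT4 and 40.5% in WT3, against 45.6 to 51.1% in HOMO. Among type II cadherins, Cdh11, which marks fibroblasts of lung and joint lining, was at 72.1, 79.6, 205 and 10.5 CPM in WT1 to WT4 and 39.3, 43.6, 89.4 and 94.2 CPM in HOMO1 to HOMO4. WT3 was the highest of all libraries and WT4 the lowest, and the 4 HOMO libraries lay between them. The difference was not called (log2 fold change -0.46 ± 0.71 (SE), adjusted p = 0.687), and its sign turned without WT3 (0.30). Cdh24, the other tested type II cadherin, was at 6.75, 4.76, 3.27 and 1.78 CPM in WT1 to WT4 and 4.68, 4.66, 6.59 and 6.07 CPM in HOMO1 to HOMO4, also with overlap (log2 fold change 0.41 ± 0.39 (SE), adjusted p = 0.503).

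The other 3 tested cadherins lie outside these classes. T-cadherin, Cdh13, is held to the membrane by a lipid anchor and has no tail. Cdh13 was at 2.70, 3.13, 6.14 and 0.503 CPM in WT1 to WT4 and 0.357, 0.121, 0.912 and 0.952 CPM in HOMO1 to HOMO4. WT1, WT2 and WT3 were above all HOMO libraries and WT4 lay among them. The difference was not called (log2 fold change -2.43 ± 0.82 (SE), adjusted p = 0.0819), although DESeq2 called it (log2 fold change -2.43, adjusted p = 0.0119). Cdh23, known from the tip links of inner ear hair cells, was at 6.41, 7.59, 1.55 and 9.60 CPM in WT1 to WT4 and 9.67, 11.1, 4.56 and 5.97 CPM in HOMO1 to HOMO4. Cdh26 was at 4.67, 4.80, 0.230 and 2.59 CPM in WT1 to WT4 and 3.66, 3.39, 3.35 and 3.41 CPM in HOMO1 to HOMO4. In both, WT3 was the lowest library and the genotypes overlapped, with log2 fold changes of 0.32 (adjusted p = 0.708) and 0.16 (adjusted p = 0.892). Each turned sign without WT3, to -0.01 and -0.22.

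Of the 15 untested cadherins, 10 had at most 3 counts in each library. VE-cadherin, Cdh5, the defining cadherin of endothelium, had at most 8 counts in a library. Cdh6, a type II cadherin of kidney, had counts of 0, 1, 5 and 0 in WT1 to WT4 and of 0, 1, 12 and 8 in HOMO1 to HOMO4. Cdh17, liver-intestine cadherin, had 74 counts in HOMO4, equal to 3.71 CPM, and 0 in each of the other 7 libraries, which allows up to 0.0908 to 0.172 CPM there. A list of 14 intestinal epithelial genes, put together after the values of Cdh17 were seen, summed to 1.46, 1.07, 2.35 and 1.24 CPM in WT1 to WT4 and 2.59, 2.33, 1.42 and 69.98 CPM in HOMO1 to HOMO4. In HOMO4, 12 of the 14 were over 3 counts, among them Sis with 319 counts, Slc5a1 with 249, Alpi with 179, and the cadherin-related genes of the brush border Cdhr2 with 66 and Cdhr5 with 45. HOMO4 thus stood apart from all other libraries in these transcripts. Without HOMO4, which left 6.72% of all genes called, 7 of the 14 member calls remained, Cdh3, Pcdhb21, Pcdhb7, Pcdhga5, Pcdhga3, Pcdhgb2 and Pcdhgb5.

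**Figure D2:**
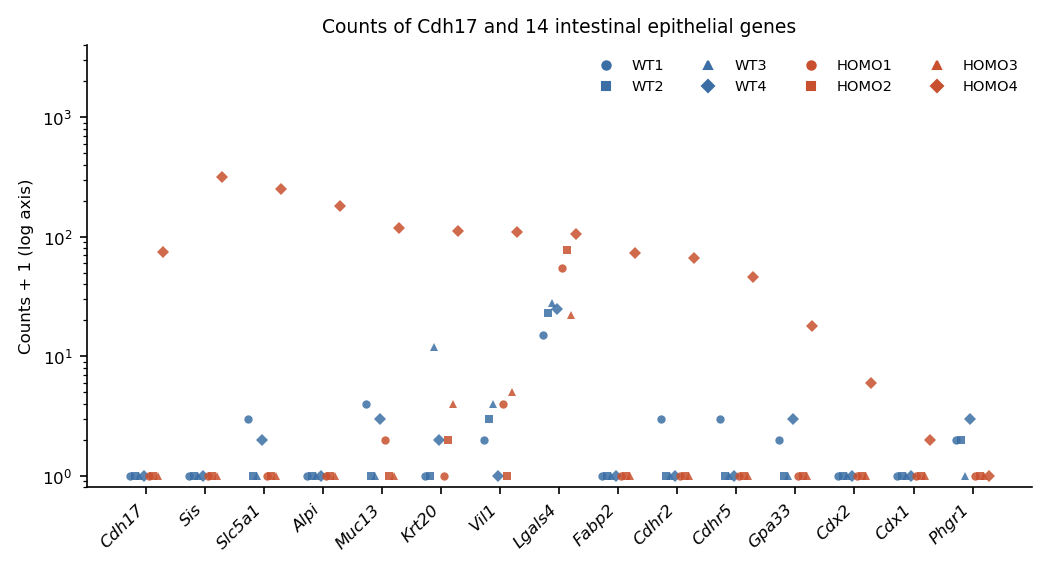
Counts + 1 on a log axis of Cdh17 and of 14 intestinal epithelial genes in each library (blue WT, orange HOMO). Cdh17 is at 74 counts in HOMO4 and at 0 in the other 7 libraries, and 12 of the 14 other genes are over 3 counts in HOMO4.

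Non-clustered protocadherins fall into delta1 and delta2 genes by their tails. Tails of delta2 members are known to bind the WAVE complex, which drives the branching of actin. All 3 tested delta2 genes had negative log2 fold changes, and 1 of them was called. The bases upstream of their starts are shown because Pcdh19 was the called non-clustered protocadherin, with those of the other delta2 genes tested, Pcdh18 and Pcdh10, and those of the abundant delta1 gene Pcdh7 for contrast. Each run holds the 250 bases before the RefSeq start on GRCm38.p6, 5′ to 3′ on the gene's strand, namely Pcdh19 at chrX:133688994-133689243 (minus strand), Pcdh18 at chr3:49757317-49757566 (minus), Pcdh10 at chr3:45378148-45378397 (plus) and Pcdh7 at chr5:57717831-57718080 (plus). Capitals mark GGGCGG, the GC box, and CCAAT, the CCAAT box, on either strand (CCGCCC and ATTGG on the other).
Pcdh19: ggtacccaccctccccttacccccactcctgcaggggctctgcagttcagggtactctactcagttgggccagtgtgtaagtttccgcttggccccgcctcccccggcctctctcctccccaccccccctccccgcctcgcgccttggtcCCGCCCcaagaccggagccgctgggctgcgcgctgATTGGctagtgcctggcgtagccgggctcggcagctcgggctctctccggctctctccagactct
Pcdh18: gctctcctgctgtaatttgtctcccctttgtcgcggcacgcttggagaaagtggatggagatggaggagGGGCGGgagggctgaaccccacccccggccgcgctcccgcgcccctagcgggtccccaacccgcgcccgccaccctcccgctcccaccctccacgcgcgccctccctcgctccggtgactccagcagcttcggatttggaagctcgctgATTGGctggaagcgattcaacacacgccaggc
Pcdh10: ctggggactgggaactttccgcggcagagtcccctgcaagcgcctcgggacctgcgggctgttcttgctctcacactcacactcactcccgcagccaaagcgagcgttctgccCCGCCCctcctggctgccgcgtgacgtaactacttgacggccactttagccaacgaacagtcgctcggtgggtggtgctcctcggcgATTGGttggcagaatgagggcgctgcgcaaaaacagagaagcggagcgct
Pcdh7: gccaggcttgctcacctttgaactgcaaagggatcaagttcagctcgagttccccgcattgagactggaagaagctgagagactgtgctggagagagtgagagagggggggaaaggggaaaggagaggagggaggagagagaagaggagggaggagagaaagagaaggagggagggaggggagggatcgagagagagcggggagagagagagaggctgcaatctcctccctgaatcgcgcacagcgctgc

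Each of the 3 delta2 windows held 1 GC box and 1 CCAAT box, and the Pcdh7 window held 0 of either. In all 3 the CCAAT box was on the strand opposite to the gene's, printed as ATTGG preceded by G. These motifs were chosen after the sequences were read, and over all 32851 windows of the same length 32.7% held the GC box and 33.8% the CCAAT box. CAGGTG (or CACCTG on the other strand), the E-box that Snai and Zeb repressors bind, was in 0 of these 4 windows and in 17.2% of all windows. The motifs do not overlap one another. GC content was 69.2% for Pcdh19, 68.00% for Pcdh18, 63.2% for Pcdh10 and 58.4% for Pcdh7, against a median of 52.4% over all windows, and CpG dinucleotides numbered 16, 23, 22 and 7, against a median of 6. A match is a description of letters and no evidence of binding.

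Pcdh19, the X-linked gene of an epilepsy of girls, was at 4.89, 4.08, 9.87 and 1.66 CPM in WT1 to WT4 and 0.401, 0.272, 1.22 and 0.401 CPM in HOMO1 to HOMO4. All HOMO libraries were below all WT libraries, with the highest HOMO library, HOMO3, just under the lowest WT library, WT4. Pcdh19 fell from 5.13 ± 3.45 CPM in WT to 0.573 ± 0.433 CPM in HOMO (log2 fold change -3.17 ± 0.67 (SE), adjusted p = 0.0203). The call was lost without HOMO1, HOMO2 and HOMO4 (adjusted p 0.0589 to 0.0769), and without HOMO3 the log2 fold change was -3.82. Pcdh18 was at 40.6, 32.3, 37.9 and 9.56 CPM in WT1 to WT4 and 3.57, 2.60, 10.9 and 12.3 CPM in HOMO1 to HOMO4. WT1 to WT3 were above all HOMO libraries, and WT4 was below HOMO3 and HOMO4. The difference was not called (log2 fold change -2.04 ± 0.61 (SE), adjusted p = 0.0587), but DESeq2 called it (log2 fold change -2.04, adjusted p = 0.00422).

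Pcdh10 was at 2.64, 2.57, 2.07 and 0.271 CPM in WT1 to WT4 and 0.223, 0.545, 0.355 and 1.55 CPM in HOMO1 to HOMO4. WT4 lay within the HOMO range and WT1 to WT3 were above all HOMO libraries (log2 fold change -1.49 ± 0.78 (SE), adjusted p = 0.218, not called). Pcdh17, untested, was almost confined to one library, with counts of 0, 4, 103 and 1 in WT1 to WT4 and of 1, 3, 4 and 1 in HOMO1 to HOMO4. Pcdh8, the remaining delta2 gene, had at most 3 counts in each library. Pcdh18 and Pcdh10 both lie on chromosome 3, with Pabpc4l between them among tested genes. There, other tested genes had a median log2 fold change of -0.23, and of the genes closest to Pcdh18 both Pabpc4l and Noct fell (-1.79 and -1.70), whereas Slc7a11 was not called (-0.74).

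Among delta1 genes, Pcdh7 was the most abundant non-clustered protocadherin by far, at 73.5 to 93.9% of the counts of the class. It was at 300.0, 329, 172 and 309.8 CPM in WT1 to WT4 and 187, 178, 215 and 218 CPM in HOMO1 to HOMO4. WT1, WT2 and WT4 were above all HOMO libraries, and WT3 was below all of them. The difference of -0.48 was not called (adjusted p = 0.153), and without WT3 it was called. Limma-voom also called Pcdh7 (log2 fold change -0.64, adjusted p = 0.000540). Of its exon bases, 21.1% are shared with a gene on the opposite strand, 4932441J04Rik, and the strand setting of the counting was not given in the sources used here. Pcdh1, an adhesion molecule of airway epithelium, was at 10.6, 11.7, 2.12 and 30.00 CPM in WT1 to WT4 and 0.847, 1.97, 4.36 and 3.56 CPM in HOMO1 to HOMO4. WT3 lay within the HOMO range and the other WT libraries above it (log2 fold change -2.35 ± 0.76 (SE), adjusted p = 0.0749, not called), whereas DESeq2 called the gene (-2.36, adjusted p = 0.00640).

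Pcdh9 was at 9.73, 11.8, 3.33 and 3.64 CPM in WT1 to WT4 and 6.06, 5.08, 4.71 and 5.21 CPM in HOMO1 to HOMO4. Pcdh11x was at 1.80, 1.67, 0.172 and 0.387 CPM in WT1 to WT4 and 1.03, 1.09, 0.355 and 1.55 CPM in HOMO1 to HOMO4. Both overlapped between genotypes, with log2 fold changes of -0.44 (adjusted p = 0.513) and 0.00 (adjusted p = 1.00). Pcdh20, Pcdh12 and Pcdh15 were untested, with at most 7 counts in a library.

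Clustered protocadherins, all on chromosome 18, were the richest class in expressed members. Their summed level overlapped between genotypes, with 342, 405, 449 and 535 CPM in WT1 to WT4 and 404, 383, 327 and 359 CPM in HOMO1 to HOMO4. The gamma C genes gave 50.1 to 60.6% of these counts. The shares of single genes within the clusters were less alike between WT and HOMO libraries than within a genotype, as a description. Over the 36 tested clustered genes, Pearson's r between libraries in log2 CPM was 0.578 to 0.679 for the 16 pairs of a WT and a HOMO library, 0.730 to 0.792 for the 5 pairs of WT libraries other than the close pair, and 0.934 to 0.956 for the 4 such HOMO pairs. Over all tested genes the same ranges were 0.852 to 0.946, 0.890 to 0.930 and 0.961 to 0.963. The r values describe points that share libraries and were not tested.

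**Figure D3:**
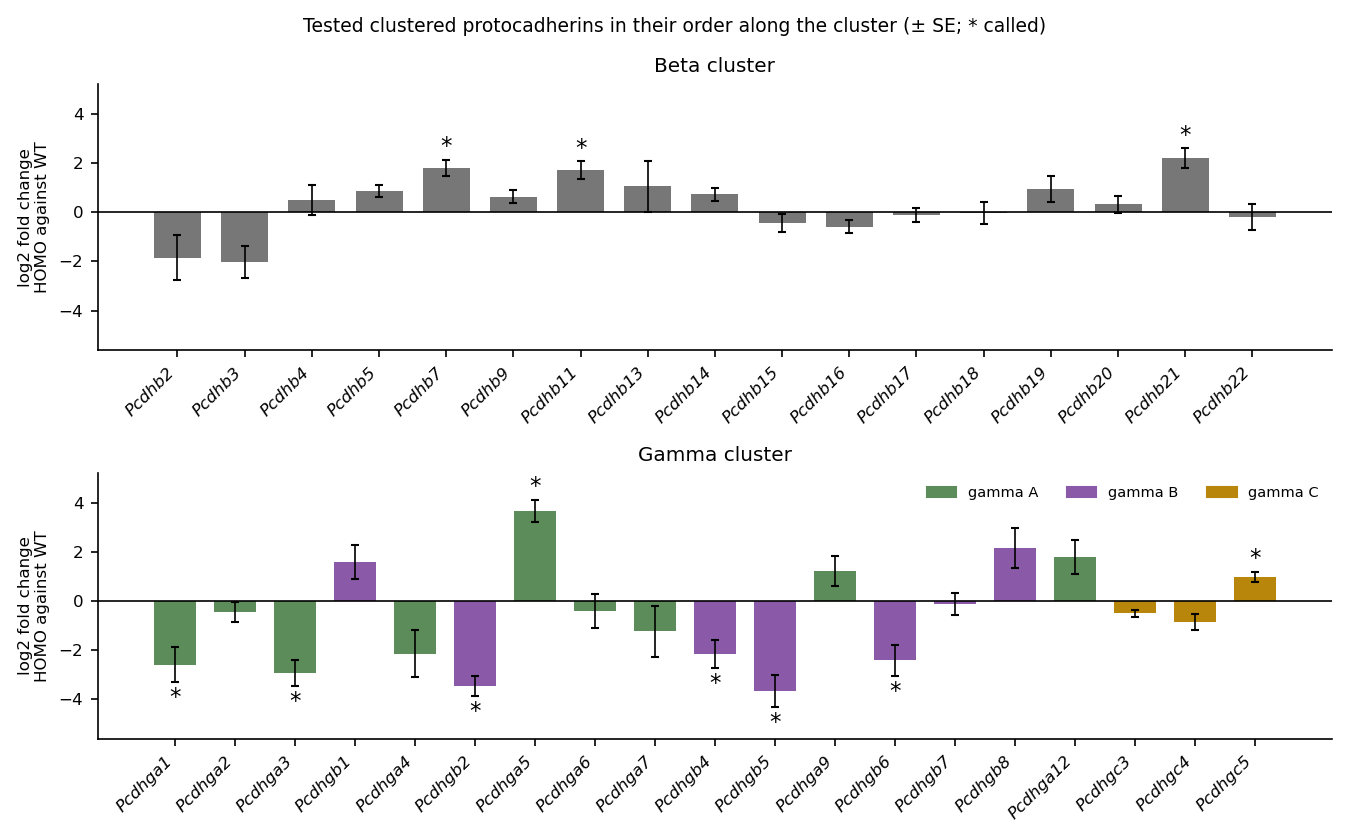
Log2 fold changes of HOMO against WT (bars, error bars SE) of the 17 tested beta genes and 19 tested gamma genes in their order along the chromosome, with asterisks on called genes. Pcdhga5 at 3.67 stands beside Pcdhgb2 at -3.47, and fallen gamma genes lie on both sides of Pcdhga5.

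Among the 14 called members, 7 were gamma A and gamma B genes. Their summed level was 80.7, 91.3, 93.6 and 91.3 CPM in WT1 to WT4 and 51.04, 44.3, 40.3 and 47.9 CPM in HOMO1 to HOMO4, with each HOMO library lower than each WT library. The mean was 89.2 ± 5.77 CPM in WT and 45.9 ± 4.61 CPM in HOMO (SD, n = 4 each). Gamma B genes alone summed to 25.98 to 61.8 CPM in WT and 10.1 to 13.6 CPM in HOMO. Of the 16 tested gamma A and gamma B genes together 1 rose and 6 fell. In WT1, WT2 and WT3 the leading gene was Pcdhgb2, with 43.1, 38.5 and 31.1% of gamma A and gamma B counts, and in WT4 it was Pcdhga7 with 17.3%. In all 4 HOMO libraries the leading gene was Pcdhga5, with 48.9, 44.6, 34.4 and 29.7%.

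**Figure D4:**
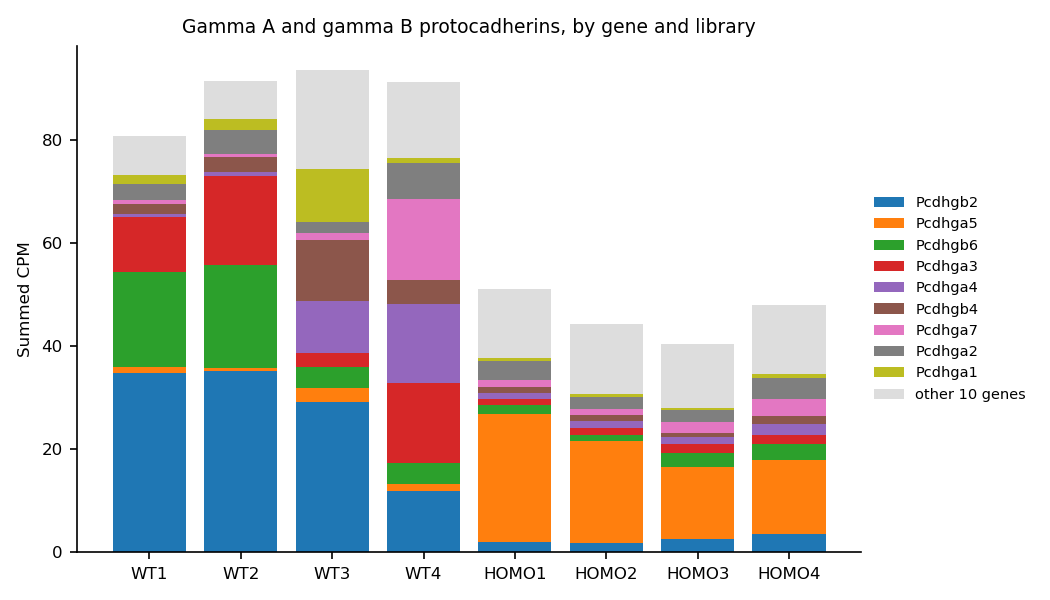
Summed CPM of the 19 gamma A and gamma B genes in each library, stacked by gene for the 9 with the highest group mean. The total is 80.7 to 93.6 CPM in WT and 40.3 to 51.0 CPM in HOMO, with Pcdhgb2 leading in WT1 to WT3 and Pcdhga5 in each HOMO library.

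Pcdhga5 was at 1.13, 0.643, 2.75 and 1.24 CPM in WT1 to WT4 and 24.96, 19.8, 13.9 and 14.2 CPM in HOMO1 to HOMO4. The lowest HOMO library was several times above the highest WT library, and HOMO1 and HOMO2 were higher than HOMO3 and HOMO4. It rose from 1.44 ± 0.913 CPM in WT to 18.2 ± 5.24 CPM in HOMO (log2 fold change 3.67 ± 0.46 (SE), adjusted p = 0.00358) and was called in all 8 fits that leave out a library. Its neighbour in the cluster, Pcdhgb2, went the other way, at 34.8, 35.2, 29.1 and 12.00 CPM in WT1 to WT4 and 1.96, 1.82, 2.64 and 3.61 CPM in HOMO1 to HOMO4. Each HOMO library was below each WT library, of which WT4 was the lowest. Pcdhgb2 fell from 27.8 ± 10.9 CPM in WT to 2.51 ± 0.818 CPM in HOMO (log2 fold change -3.47 ± 0.40 (SE), adjusted p = 0.00267), also in all 8 fits. Per kilobase of exon shared with no other gene, Pcdhgb2 went from 10.05 to 0.907 CPM and Pcdhga5 from 0.566 to 7.16 CPM.

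The other 3 fallen gamma B genes were Pcdhgb6, Pcdhgb5 and Pcdhgb4. Pcdhgb6 was at 18.6, 19.9, 4.13 and 4.14 CPM in WT1 to WT4 and 1.56, 1.15, 2.79 and 3.26 CPM in HOMO1 to HOMO4. It was high in the close pair WT1 and WT2, while WT3 and WT4 stood just over HOMO4 (log2 fold change -2.42 ± 0.64 (SE), adjusted p = 0.0407). The call was lost without WT1, WT2, HOMO1, HOMO2, HOMO3 and HOMO4 (adjusted p 0.0709 to 0.124). Pcdhgb5 had counts of 41, 53, 16 and 47 in WT1 to WT4 and of 3, 8, 0 and 3 in HOMO1 to HOMO4, so that HOMO libraries were at or near the floor of 3 counts, and the fitted fold change of such a gene depends on the prior count (log2 fold change -3.67 ± 0.66 (SE), adjusted p = 0.0121). It passed the filter through WT alone and its call was lost without HOMO1 (adjusted p = 0.0533). Pcdhgb4 was at 1.97, 2.79, 11.8 and 4.57 CPM in WT1 to WT4 and 1.20, 1.06, 0.811 and 1.65 CPM in HOMO1 to HOMO4. WT3 was the highest, and all WT libraries were above all HOMO libraries (log2 fold change -2.16 ± 0.58 (SE), adjusted p = 0.0426). Without WT3 its log2 fold change was -1.40, and the call was lost without WT4, HOMO1, HOMO2, HOMO3 and HOMO4 (adjusted p 0.0574 to 0.127).

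Pcdhga3 and Pcdhga1 were the fallen gamma A genes. Pcdhga3 was at 10.6, 17.4, 2.64 and 15.5 CPM in WT1 to WT4 and 1.16, 1.39, 1.72 and 1.75 CPM in HOMO1 to HOMO4. WT3 was the lowest WT library and still above all HOMO libraries (log2 fold change -2.93 ± 0.53 (SE), adjusted p = 0.0126). The call was lost without HOMO1 and HOMO2 (adjusted p 0.0528 to 0.0531). Pcdhga1 was at 1.80, 2.23, 10.2 and 1.12 CPM in WT1 to WT4 and 0.580, 0.726, 0.456 and 0.752 CPM in HOMO1 to HOMO4. Most of its WT level came from WT3, although each WT library was above each HOMO library (log2 fold change -2.59 ± 0.71 (SE), adjusted p = 0.0460). Without WT3 its log2 fold change was -1.44, and the call was lost without WT2, HOMO1, HOMO2, HOMO3 and HOMO4 (adjusted p 0.0590 to 0.132).

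Some gamma genes were high in one or both of WT3 and WT4 only. Pcdhga4 was at 0.619, 0.729, 10.04 and 15.3 CPM in WT1 to WT4 and 1.20, 1.42, 1.37 and 2.01 CPM in HOMO1 to HOMO4. Pcdhga7 was at 0.731, 0.601, 1.38 and 15.8 CPM in WT1 to WT4 and 1.34, 1.18, 2.13 and 3.26 CPM in HOMO1 to HOMO4. Neither was called (-2.15 (adjusted p = 0.157) and -1.24 (adjusted p = 0.439)), and without WT4 the sign of Pcdhga7 turned (1.13). With limma-voom Pcdhga7 was called in the opposite direction (log2 fold change 1.57, adjusted p = 0.0149). Pcdhga11, which missed the filter, had counts of 3, 14, 118 and 66 in WT1 to WT4 and of 1, 2, 9 and 8 in HOMO1 to HOMO4, and DESeq2 called it (log2 fold change -3.41, adjusted p = 0.00838). Pcdhga6 was at 0.788, 1.67, 8.49 and 1.47 CPM in WT1 to WT4 and 1.60, 1.91, 2.89 and 2.96 CPM in HOMO1 to HOMO4, with WT3 the highest library and a sign that turned without it (-0.40 (adjusted p = 0.726), 0.82 without WT3). The same 2 libraries held most macrophage transcripts. The 10 macrophage markers summed to 135, 165, 2049.7 and 1204 CPM in WT1 to WT4 and 59.4, 64.05, 180.2 and 204 CPM in HOMO1 to HOMO4, 10 were tested and 0 called, with a median log2 fold change of -2.32. The part of these transcripts in the levels of the members was not tested.

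Positive differences that were not called were those of 4 gamma genes. Pcdhgb8 was at 1.74, 1.12, 0 and 0.426 CPM in WT1 to WT4 and 4.32, 4.05, 3.55 and 2.71 CPM in HOMO1 to HOMO4, with no overlap (log2 fold change 2.15 ± 0.82 (SE), adjusted p = 0.112, and called by DESeq2 with an adjusted p = 0.0228). Pcdhga12 was at 0.113, 0.129, 0.631 and 1.32 CPM in WT1 to WT4 and 1.47, 2.54, 1.67 and 2.06 CPM in HOMO1 to HOMO4, again with each HOMO library above each WT library (log2 fold change 1.79 ± 0.70 (SE), adjusted p = 0.119). Pcdhga9 was at 0.731, 0.429, 0.344 and 2.40 CPM in WT1 to WT4 and 2.67, 2.78, 1.27 and 2.46 CPM in HOMO1 to HOMO4. The WT4 level of Pcdhga9 lay within the HOMO range (log2 fold change 1.21 ± 0.62 (SE), adjusted p = 0.212). Pcdhgb1 was at 0.169, 0.0858, 0.287 and 1.05 CPM in WT1 to WT4 and 1.65, 0.696, 1.27 and 1.35 CPM in HOMO1 to HOMO4, also with an overlap made by WT4 (log2 fold change 1.59 ± 0.69 (SE), adjusted p = 0.153). 

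Pcdhga2 was at 2.98, 4.63, 2.24 and 6.89 CPM in WT1 to WT4 and 3.66, 2.30, 2.23 and 4.06 CPM in HOMO1 to HOMO4. Pcdhgb7 was at 1.13, 0.472, 1.21 and 1.97 CPM in WT1 to WT4 and 1.47, 1.12, 0.912 and 0.852 CPM in HOMO1 to HOMO4. Both overlapped between genotypes, with differences of -0.46 (adjusted p = 0.465) and -0.13 (adjusted p = 0.867). Untested gamma A genes besides Pcdhga11 were Pcdhga8, with counts of 8, 9, 4 and 32 in WT1 to WT4 and of 1, 1, 5 and 6 in HOMO1 to HOMO4, and Pcdhga10, with counts of 0, 3, 8 and 13 in WT1 to WT4 and of 0, 2, 1 and 1 in HOMO1 to HOMO4, in both of which WT4 was the highest. Other annotated genes share 100% of the exon bases of Pcdhga10 and 73.6% of those of Pcdhga11. Their counts therefore depend on how shared reads were assigned.

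The gamma C genes are known for steadier use than the other clustered genes. Pcdhgc3 was at 176, 204, 202 and 271 CPM in WT1 to WT4 and 158, 153, 138 and 151 CPM in HOMO1 to HOMO4. Each HOMO library was below each WT library, but the difference was not called (log2 fold change -0.50 ± 0.15 (SE), adjusted p = 0.0601). Per kilobase of all its exons it was at 38.8 CPM in WT and 27.3 CPM in HOMO, near Cdh2 at 37.9 and 21.1 CPM. Per kilobase of exon shared with no other gene it was at 117 and 82.5 CPM, a scale that leaves out the 66.9% of its exon bases that other genes share. Pcdhgc5 was at 19.5, 26.6, 32.1 and 21.5 CPM in WT1 to WT4 and 42.3, 37.5, 57.8 and 59.2 CPM in HOMO1 to HOMO4, again without overlap. Pcdhgc5 rose from 24.9 ± 5.66 CPM in WT to 49.2 ± 10.9 CPM in HOMO (log2 fold change 0.98 ± 0.22 (SE), adjusted p = 0.0243), and the call was lost without HOMO1, HOMO3 and HOMO4 (adjusted p 0.0585 to 0.0623). Its share of gamma C counts was 7.29 to 13.4% in WT and 19.5 to 29.1% in HOMO. Pcdhgc4 was at 3.77, 3.52, 5.68 and 2.01 CPM in WT1 to WT4 and 2.10, 1.88, 2.18 and 2.16 CPM in HOMO1 to HOMO4, where the genotypes overlapped (log2 fold change -0.85 ± 0.33 (SE), adjusted p = 0.119, not called). Of the exon bases of the tested gamma genes, 31.5 to 66.9% are shared with another annotated gene on either strand, as the constant exons are. How the counting assigned reads on such bases was not given in the sources used here.

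Beta genes had no fallen member and a summed level that overlapped between genotypes, at 61.4, 78.8, 113 and 146 CPM in WT1 to WT4 and 150.3, 145, 88.04 and 96.6 CPM in HOMO1 to HOMO4. The median log2 fold change of the 17 tested was 0.51, with 10 positive and 7 negative. Pcdhb21 was at 2.14, 1.80, 1.84 and 3.95 CPM in WT1 to WT4 and 15.6, 15.6, 7.15 and 7.12 CPM in HOMO1 to HOMO4. Each HOMO library was above each WT library, and the gene rose from 2.43 ± 1.02 CPM in WT to 11.4 ± 4.88 CPM in HOMO (log2 fold change 2.22 ± 0.41 (SE), adjusted p = 0.0130) and was called in all 8 fits that leave out a library. Pcdhb7 was at 0.788, 0.815, 0.746 and 0.465 CPM in WT1 to WT4 and 3.17, 2.12, 1.77 and 2.86 CPM in HOMO1 to HOMO4, with no overlap (log2 fold change 1.81 ± 0.33 (SE), adjusted p = 0.0129). Its call was lost without HOMO1 (adjusted p = 0.0535). Pcdhb11 was at 0.619, 0.386, 0.746 and 0.348 CPM in WT1 to WT4 and 1.56, 1.36, 1.88 and 2.11 CPM in HOMO1 to HOMO4, likewise with no overlap (log2 fold change 1.72 ± 0.36 (SE), adjusted p = 0.0194). That call was lost without WT2, HOMO1, HOMO2, HOMO3 and HOMO4 (adjusted p 0.0518 to 0.0623).

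Pcdhb5 and Pcdhb9 did not overlap between genotypes either, yet were not called. Pcdhb5 was at 3.49, 3.52, 6.20 and 4.88 CPM in WT1 to WT4 and 9.54, 8.71, 7.50 and 7.27 CPM in HOMO1 to HOMO4 (log2 fold change 0.87 ± 0.25 (SE), adjusted p = 0.0542), and DESeq2 called it (adjusted p = 0.0101). Pcdhb9 was at 2.19, 2.92, 2.64 and 3.10 CPM in WT1 to WT4 and 4.77, 5.29, 3.19 and 3.51 CPM in HOMO1 to HOMO4 (log2 fold change 0.63 ± 0.26 (SE), adjusted p = 0.142). In both, HOMO1 and HOMO2 were the highest libraries. Pcdhb14 was at 7.26, 10.8, 7.06 and 13.2 CPM in WT1 to WT4 and 18.2, 18.1, 14.3 and 12.8 CPM in HOMO1 to HOMO4, with WT4 inside the HOMO range (log2 fold change 0.73 ± 0.25 (SE), adjusted p = 0.0895). Pcdhb19 was at 2.93, 4.33, 12.5 and 13.1 CPM in WT1 to WT4 and 23.6, 20.6, 9.73 and 9.12 CPM in HOMO1 to HOMO4. In Pcdhb19 the WT3 and WT4 levels were above those of HOMO3 and HOMO4, and the difference was not called (log2 fold change 0.94 ± 0.54 (SE), adjusted p = 0.263). Limma-voom called Pcdhb19 (log2 fold change 1.63, adjusted p = 0.00406).

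Other abundant beta genes overlapped between genotypes. Pcdhb16 was at 14.7, 18.4, 23.8 and 26.6 CPM in WT1 to WT4 and 16.3, 14.9, 9.22 and 15.5 CPM in HOMO1 to HOMO4. Pcdhb17 was at 12.9, 17.3, 23.01 and 26.2 CPM in WT1 to WT4 and 22.4, 24.4, 13.9 and 13.2 CPM in HOMO1 to HOMO4. Pcdhb22 was at 5.12, 7.46, 15.7 and 27.4 CPM in WT1 to WT4 and 16.4, 16.6, 8.11 and 8.12 CPM in HOMO1 to HOMO4. In all 3 the genotypes overlapped and the difference was not called (-0.58 (adjusted p = 0.151), -0.10 (adjusted p = 0.841) and -0.18 (adjusted p = 0.846)), and WT4 was the highest WT library. Pcdhb20 was at 3.77, 4.76, 6.66 and 6.97 CPM in WT1 to WT4 and 9.45, 8.56, 4.31 and 5.31 CPM in HOMO1 to HOMO4. Pcdhb18 was at 2.19, 3.05, 4.53 and 9.21 CPM in WT1 to WT4 and 5.53, 4.90, 2.99 and 5.06 CPM in HOMO1 to HOMO4. Pcdhb15 was at 1.35, 0.901, 1.84 and 1.86 CPM in WT1 to WT4 and 0.802, 1.09, 0.963 and 1.55 CPM in HOMO1 to HOMO4. These overlapped as well (0.32 (adjusted p = 0.539), -0.04 (adjusted p = 0.961) and -0.43 (adjusted p = 0.437)).

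Pcdhb3 and Pcdhb2, first in the cluster among the tested beta genes, had the only beta log2 fold changes below -1. Pcdhb3 was at 0.506, 0.601, 3.33 and 2.75 CPM in WT1 to WT4 and 0.446, 0.575, 0.304 and 0.401 CPM in HOMO1 to HOMO4. WT2 to WT4 stood above all HOMO libraries (log2 fold change -2.03 ± 0.66 (SE), adjusted p = 0.0753, not called), and DESeq2 called it (log2 fold change -2.04, adjusted p = 0.0206). Pcdhb2 was at 0.788, 1.07, 0.115 and 3.14 CPM in WT1 to WT4 and 0.178, 0.0908, 0.355 and 0.852 CPM in HOMO1 to HOMO4, with overlap (log2 fold change -1.84 ± 0.93 (SE), adjusted p = 0.209). Pcdhb4 and Pcdhb13, both with group means under 1 CPM, were not called. Of the 5 untested beta genes, Pcdhb12 had counts of 4, 5, 2 and 27 in WT1 to WT4 and of 6, 9, 5 and 1 in HOMO1 to HOMO4, Pcdhb8 had counts of 2, 3, 17 and 3 in WT1 to WT4 and of 6, 8, 5 and 5 in HOMO1 to HOMO4, and Pcdhb10 had counts of 1, 0, 3 and 12 in WT1 to WT4 and of 7, 7, 4 and 1 in HOMO1 to HOMO4.

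Alpha genes were close to silent. Their sum over 14 entries was 0.558 to 2.67 CPM in WT and 0.178 to 1.40 CPM in HOMO, and 7 of them had at most 3 counts in each library. Pcdhac2 had counts of 9, 4, 1 and 21 in WT1 to WT4 and of 1, 0, 4 and 15 in HOMO1 to HOMO4. Pcdha12 had counts of 4, 2, 3 and 32 in WT1 to WT4 and of 1, 2, 4 and 0 in HOMO1 to HOMO4. Pcdha11 had counts of 0, 2, 11 and 12 in WT1 to WT4 and of 0, 4, 1 and 5 in HOMO1 to HOMO4 in its expressed entry, and Pcdha8 had 18 counts in WT3 and at most 3 elsewhere.

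**Figure D5:**
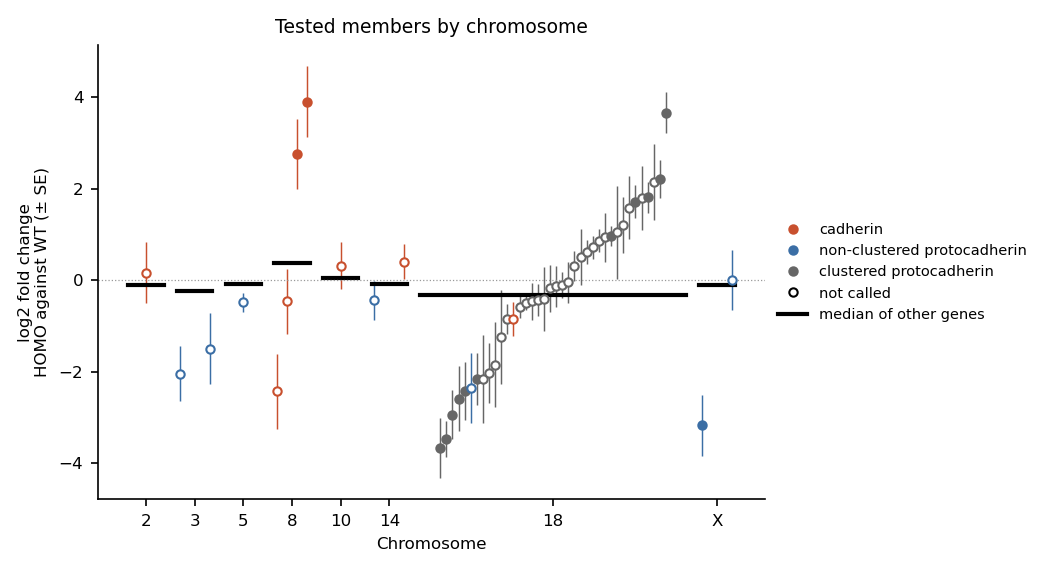
Log2 fold changes (points, error bars SE) of the 51 tested members by chromosome, in order of value within each, filled where called, with the median of the other tested genes of each chromosome as a black line. Members of chromosome 18 run from -3.67 to 3.67 around a median of -0.31, and Cdh3 and Cdh1 lie above the chromosome 8 median of 0.37.

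By position, 38 of the tested members lie on chromosome 18 (11 called, 28.9%) and 4 on chromosome 8 (2 called, 50%). Of all tested genes 12.1% were called. Whether position bears on these calls was not tested. Cdh2 and Pcdh1 also lie on chromosome 18, outside the clusters. Other tested genes of chromosome 18 had a median log2 fold change of -0.31. Relative to it Pcdhga5 was at 3.98, Pcdhgb2 at -3.16 and Pcdhgc3 at -0.19.

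Partners and regulators of these molecules were given by 8 lists of 99 genes, of which 73 were tested, 6 rose and 10 fell (21.9%, against 12.1% of all tested genes). The lists' median log2 fold change was -0.04. Among 12 tested catenins and tail partners 1 rose and 2 fell. Alpha-catenin, Ctnna1, was at 442, 439, 373 and 492 CPM in WT1 to WT4 and 292, 291, 328 and 320.1 CPM in HOMO1 to HOMO4. No library overlapped, but the log2 fold change of -0.50 (adjusted p = 0.0402) was short of the fold threshold. Plakoglobin, Jup, a catenin of adherens junctions and desmosomes, was at 62.5, 69.8, 61.9 and 112 CPM in WT1 to WT4 and 43.9, 42.5, 35.4 and 38.2 CPM in HOMO1 to HOMO4, and it fell (log2 fold change -0.94 ± 0.21 (SE), adjusted p = 0.0249). Beta-catenin, Ctnnb1, and p120 catenin, Ctnnd1, were not called, with means of 448 ± 34.03 CPM in WT and 504 ± 19.7 CPM in HOMO for the former (0.17 (adjusted p = 0.367)) and 77.8 ± 26.8 CPM in WT and 54.5 ± 5.30 CPM in HOMO for the latter (-0.51 (adjusted p = 0.173)). Pkp4, a p120 relative, was at 104, 106, 34.1 and 129.5 CPM in WT1 to WT4 and 259, 252, 225 and 212 CPM in HOMO1 to HOMO4 and rose (1.34 (adjusted p = 0.0391)), and Ctnnd2, another, fell (-2.89 (adjusted p = 0.0478)).

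None of the 9 desmosomal cadherins was tested, and they summed to at most 0.401 CPM in a library. Of 9 tested large and related cadherins Celsr2, a planar polarity cadherin, rose (1.80 (adjusted p = 0.0183)) and Fat4, a receptor of the Dachsous and Fat pathway, fell from 64.4 ± 9.34 CPM in WT to 29.7 ± 3.19 CPM in HOMO (-1.12 (adjusted p = 0.00436)). Of 7 tested nectins and nectin-like molecules, which start junctions alongside cadherins, 1 rose and 3 fell. Nectin1 (-1.54 (adjusted p = 0.00994)), Nectin3 (-0.80 (adjusted p = 0.0482)) and Pvr (-0.99 (adjusted p = 0.00855)) fell. Cadm3, known from nerve, was at 0.169, 0.172, 0.861 and 0.155 CPM in WT1 to WT4 and 6.33, 6.78, 6.94 and 10.2 CPM in HOMO1 to HOMO4, and it rose (log2 fold change 4.50 ± 0.60 (SE), adjusted p = 0.00448).

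Of 8 tested repressors of epithelial cadherin, Twist1 rose and Twist2, its close relative, fell. Twist1 was at 8.21, 7.34, 30.6 and 13.1 CPM in WT1 to WT4 and 50.95, 49.01, 50.5 and 45.5 CPM in HOMO1 to HOMO4 (1.73 (adjusted p = 0.0337)). Twist2 was at 15.6, 16.2, 30.9 and 13.6 CPM in WT1 to WT4 and 5.22, 5.45, 4.92 and 7.62 CPM in HOMO1 to HOMO4 (-1.72 (adjusted p = 0.0114)). Neither overlapped between genotypes. Snai1 and Snai2 were not called, at -0.81 (adjusted p = 0.104) and -1.01 (adjusted p = 0.0804). Of 8 sheddases and endocytic regulators the protease Adam17 rose (0.77 (adjusted p = 0.0464)). Of 16 regulators of the clustered genes, the DNA methyltransferase Dnmt3a rose from 25.1 ± 8.30 CPM in WT to 52.1 ± 7.11 CPM in HOMO (1.05 (adjusted p = 0.0245)) and Lrif1, a partner of Smchd1, fell (-0.60 (adjusted p = 0.0419)). Of 13 tested partners and effectors of protocadherins Cyfip2, a subunit of the WAVE complex, fell from 7.08 ± 0.345 CPM in WT to 1.39 ± 0.362 CPM in HOMO (-2.35 (adjusted p = 0.00217)), and the focal adhesion kinase Ptk2 fell as well (-0.71 (adjusted p = 0.0261)).

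Markers of other cell types beside those above were low or overlapped between genotypes. Endothelial markers summed to 2.62 to 9.12 CPM in WT and 3.27 to 8.01 CPM in HOMO. Glial and neural crest markers summed to 2.31 to 2.98 CPM in WT and 3.79 to 4.69 CPM in HOMO, with Erbb3 risen. Neuronal markers summed to 38.6 to 182 CPM in WT and 23.7 to 39.6 CPM in HOMO, with Syt1 risen and Tubb3 fallen. Nearly all of that sum was Tubb3, at 93.6 ± 61.6 CPM in WT and 29.6 ± 8.18 CPM in HOMO. Elavl3, Snap25, Rbfox3 and Stmn2 had at most 2 counts in a library. Pericyte and smooth muscle markers summed to 828 to 2733 CPM in WT and 263 to 1475 CPM in HOMO, with Rgs5 fallen. Of the fibroblast markers Vim and Pdgfrb fell. The part of these differences in the levels of cadherins and protocadherins was not tested.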

How the data were processed

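RNA-seq libraries of pFBs of female mice, 4 libraries of WT and 4 of HOMO, were compared. The deposited table holds raw gene counts that the authors made with STAR and featureCounts on mm10, as their processing notes and methods state, and DESeq2 is named there as well. The settings for strand and for reads on more than one gene were not given in the sources used here. The deposited counts carry a label that an outlier was taken out, and 0 columns of other samples were left aside. Groups were taken from the labels.

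Counts were tested with edgeR 4.0.16 (quasi-likelihood F test, TMM, filterByExpr by genotype, Benjamini-Hochberg) in R 4.3.3. Alternatives were DESeq2 1.42.0, limma 3.58.1 voom with sample weights, other scalings, filters and thresholds, the replicate number as a block, each library left out in turn, and close library pairs summed. The procedure was tested on simulated data with independent libraries, which did not include the close pairs. Each SE is the size of the log2 fold change over the square root of F. GENCODE M21 (GRCm38) gave positions and exon lengths, and 53954 of 54532 entries matched. Upstream sequences came from RefSeq (GRCm38.p6), with entries for 22 members. Members, lists and tests were chosen with earlier results of these data known. Named were the called members and those with a mean of at least 1 CPM in a genotype, untested members with at least 10 counts in a library, and called genes of the pathway lists with 4 catenins. Tables and figures were made with Python and matplotlib.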

Additional observations from a re-analysis of the deposited data

Results flagged for a closer look

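Of 128 groups of 4 libraries examined, 12 had a library far from the other 3 by Dixon's criterion on log2(CPM + 0.1). Among groups of independent libraries chance alone flags about 1 in 20, a rate that need not hold with close pairs. Levels far above the rest of their group were those of Cdh17 in HOMO4 (3.71 CPM, with 0 in the other HOMO libraries), Pcdha8 in WT3 (1.03 CPM), Pcdhb8 in WT3 (0.976 CPM) and Pcdhb4 in WT4 (1.32 CPM). Levels far below were those of Pcdh7 in WT3 (172 CPM, against 300.03 to 329 CPM in the other WT libraries), Pcdh18 in WT4 (9.56 CPM, against 32.3 to 40.6 CPM), Pcdh10 in WT4 (0.271 CPM, against 2.07 to 2.64 CPM), Pcdhb7 in WT4 (0.465 CPM), Pcdhb16 in HOMO3 (9.22 CPM), Pcdhb13 in HOMO3 (0.405 CPM), Pcdhga9 in HOMO3 (1.27 CPM) and Pcdhb12 in HOMO4 (0.0501 CPM, 1 count). WT3 or WT4 was the library apart in 7 of the 12. Since WT1 and WT2 are a close pair, WT3 and WT4 were the WT libraries most able to stand apart. That count therefore does not set WT3 or WT4 apart as unusual.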

How the results depend on the processing

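Of the 14 called members, Cdh3, Pcdhb21, Pcdhga5 and Pcdhgb2 were called in all 8 fits that leave out a library. Where that library belonged to a close pair, its partner stayed in the fit. With close pairs summed, edgeR gave adjusted p-values of 0.299 (Cdh3), 0.296 (Pcdhb21), 0.197 (Pcdhga5) and 0.201 (Pcdhgb2). The number of members called was 14 in the reported fit (12.1% of all genes called), in RLE (12.3%) and in upper-quartile scaling (12.2%), 32 with limma-voom (25.3%), 6 with the replicate block (6.69%), 8 with glmTreat (3.21%), 2 at an adjusted p under 0.01 (2.81%), 0 in edgeR with the close library pairs summed (0%), and 4 to 21 with one library left out (3.52 to 15%). Against the same shares, 16 genes of the pathway lists were called in the reported fit, 25 by DESeq2 (16.5%), 8 with the replicate block, 5 with glmTreat, 5 at an adjusted p under 0.01, 0 (edgeR) and 7 (DESeq2, 4.69%) with close pairs summed, and 6 to 18 with one library left out. The cause of these differences was not tested. Limma-voom called the same 14 members and 18 more, among them Cdh2, Pcdh7 and Pcdhb19. WT and HOMO libraries share only a number. Same-numbered libraries deviated from their group means with r of -0.0910, -0.0424, 0.0141 and -0.124, so the block was not used as a pairing. Other scalings moved the median log2 fold change of all genes by at most 0.02.

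Signs that turned were all of members not called in the reported fit. With limma-voom the log2 fold changes became -0.0931 (Cdh23), -0.43 (Cdh26), 0.57 (Pcdhb22), 0.58 (Pcdhb18), 0.19 (Pcdhb15), 0.99 (Pcdhga4), 1.57 (Pcdhga7, called there, adjusted p = 0.0149), 0.70 (Pcdhga6), 0.79 (Pcdhgb7) and -0.85 (Pcdh11x). With the replicate block they became 0.0344 (Pcdhb22), 0.13 (Pcdhb18), 0.0629 (Pcdhga7) and 0.16 (Pcdhga6). Pcdh11x, at 0.00 in the reported fit, was at -0.00786 with RLE scaling and -0.00670 with DESeq2. With one library left out the ranges were -0.00721 to 0.59 (Cdh23), -0.22 to 0.46 (Cdh26), -0.83 to 0.30 (Cdh11), -0.26 to 0.0605 (Pcdhb17), -0.45 to 0.39 (Pcdhb22), -0.28 to 0.51 (Pcdhb18), -1.60 to 1.13 (Pcdhga7), -0.72 to 0.82 (Pcdhga6), -0.40 to 0.23 (Pcdhgb7) and -0.34 to 0.42 (Pcdh11x). Members at or under the floor of 3 counts in a library have imprecise levels there.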
